A study of Mus musculus with 24 samples.

Results

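Pericytes of the E13.5 mouse brain labelled as carrying 2 floxed copies of Alk5, the gene of a TGF-beta receptor, were compared with control pericytes labelled as carrying 1, gene by gene. The genes described are those on autosomes whose mean normalized read count was 10 or more in mutants or in controls, which held for 19799 of the 23792 genes in the E13.5 pericyte table (25471 genes appear in any of the 3 tables of the series). Ccdc78 lay just inside that minimum with a higher mean of 10.01 and Gm16853 just outside it with 9.998. The authors gave a false discovery rate (FDR) for 19141 of these genes, and the highest mean among the 658 without one was 17.1.

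Messenger RNA was sequenced from flow-sorted cells of embryonic brain. The labels give 4 mutant samples, genotype Pdgfrb-Cre, Alk5(flox/flox), Zs/+, and 4 control samples, genotype Pdgfrb-Cre, Alk5(flox/+), Zs/+, all at E13.5, and mark the mutants GMH-IVH and the controls normal. Every animal of both groups thus carried Cre under Pdgfrb, the ZsGreen reporter and at least 1 floxed copy of Alk5, and controls could keep 1 working copy in the cells where Cre acts. Pdgfrb is active in pericytes, smooth muscle and other mesenchymal cells, so the deletion is not limited to pericytes. The labels name the cell type as mesenchymal. E11.5 pericytes (4 mutants and 4 controls) and E13.5 microvascular endothelial cells (3 mutants and 5 controls), from embryos with the same 2 genotypes, serve for comparison. The labels do not state separate litters or pooling, so every p-value reflects the spread among these samples alone.

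Pericytes are mural cells that wrap capillaries, share a basement membrane with the endothelium and hold young vessels together. TGF-beta ligands are secreted in a latent form, are released near cells that carry binding proteins such as the one encoded by Lrrc32, and bind a type II receptor that recruits ALK5, the type I receptor encoded by Tgfbr1. ALK5 phosphorylates SMAD2 and SMAD3, which enter the nucleus with SMAD4 and switch on matrix, contractile and feedback genes. In the developing brain this pathway is known for its part in the maturation of mural cells and vessels.

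The RNA with the smallest p was that of Sned1, a secreted matrix protein, which rose from a mean of 5887 in controls to 12528 in mutants per the authors' deposited table (log2 ratio 1.09, SE 0.10, FDR = 4.84e-21). Next came Epha8, a receptor for ephrins, which rose from 149 to 365 per the authors' deposited table. Among genes that fell, Chp2, a calcineurin-like calcium-binding protein, and B3galt5, a galactosyltransferase, had the smallest p, with means of 32.2 and 80.7 in controls against 4.27 and 28.1 in mutants per the authors' deposited table. The DNA just before the starts of these genes is printed 5′ to 3′ on the gene's strand, because it is where SMADs and other factors could act on the members with the strongest evidence of change. The sequences are RefSeq's, build GRCm38.p6, each up to 250 bases and ending before the first annotated base of the gene. Capitals mark the 5-base SMAD-binding motif CAGAC or its reverse complement GTCTG.
Sned1: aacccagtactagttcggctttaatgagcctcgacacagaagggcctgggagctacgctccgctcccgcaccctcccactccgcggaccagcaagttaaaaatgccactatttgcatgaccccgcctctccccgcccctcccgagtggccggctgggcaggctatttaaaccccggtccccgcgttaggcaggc
Epha8: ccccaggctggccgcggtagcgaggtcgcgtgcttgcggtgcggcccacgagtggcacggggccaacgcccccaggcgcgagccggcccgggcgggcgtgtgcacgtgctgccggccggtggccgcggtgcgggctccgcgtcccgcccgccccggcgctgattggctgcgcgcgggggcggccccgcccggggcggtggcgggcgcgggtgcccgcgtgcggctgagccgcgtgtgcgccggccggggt
Chp2: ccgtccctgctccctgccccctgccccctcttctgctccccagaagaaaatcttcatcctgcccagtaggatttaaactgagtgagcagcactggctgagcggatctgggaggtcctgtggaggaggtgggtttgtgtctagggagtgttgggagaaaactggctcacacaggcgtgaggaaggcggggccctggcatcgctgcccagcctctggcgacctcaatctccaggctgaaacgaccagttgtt
B3galt5: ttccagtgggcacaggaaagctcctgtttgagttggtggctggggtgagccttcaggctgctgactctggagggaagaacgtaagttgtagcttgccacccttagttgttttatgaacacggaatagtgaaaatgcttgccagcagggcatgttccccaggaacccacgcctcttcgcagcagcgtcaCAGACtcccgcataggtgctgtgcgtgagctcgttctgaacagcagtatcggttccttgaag

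The windows are chr1:93235647-93235840 for Sned1, chr4:136956817-136957066 on the minus strand for Epha8, chr7:122219246-122219495 for Chp2 and chr16:96235551-96235800 for B3galt5, the most upstream of its 3 listed starts. The motif was found once, in B3galt5, and its letters were not in the other windows. Of 32851 promoters listed for the mouse, 13861 (42.2%) hold CAGAC or GTCTG within 250 bases before the start, so a match in 1 window of 4 is no more than a description. RefSeq entries were found by symbol for 49 of the 76 genes that changed (64.5%), and with the rest unmatched the share with the motif among them is not reported here.

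In all, 76 genes passed an FDR of 0.05 per the authors' deposited table, or 0.397% of the 19141 tested. They were 45 genes higher in mutants (0.235%) and 31 lower (0.162%), or 59.2% higher. Scaled to the summed group means, which adds 0.019 to each log2 ratio, 84 genes passed, of which 71.4% were higher, and 69 were shared. An unadjusted p under 0.05 was given for 781 genes (4.08%) per the authors' deposited table, and the median size of the test statistic was 0.582 where a standard normal has 0.674. The changes were small: the median fold was 1.54 among genes that rose (range 1.20 to 3.65) and 1.42 among those that fell (range 1.19 to 7.67), and 38 of the 76 lay under 1.5-fold. Just inside the threshold were Abcc4, Abcg1 and Coch with FDR of 0.0430, 0.0434 and 0.0457, and just outside it Fam43a, D030034A15Rik and D2hgdh with 0.0510, 0.0511 and 0.0511, all per the authors' deposited table.

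**Figure D1:**
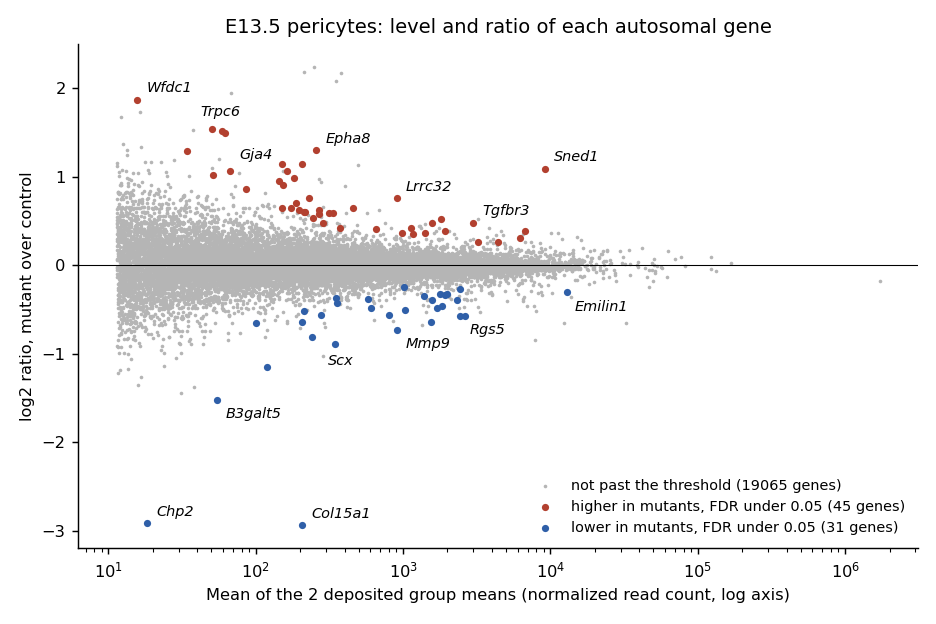
Log2 ratio of mutant to control (vertical) against the mean of the deposited group means (horizontal, log axis) for 19141 autosomal genes of E13.5 pericytes. Each point is a gene, and the 45 red and 31 blue points passed an FDR of 0.05 per the authors' deposited table. Sned1 stands apart at a high level, and Chp2 and Col15a1 lie near -3.

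Precision depended on the level of a gene. In 4 equal groups of the tested genes by mean level, from lowest to highest, the median SE of the log2 ratio was 0.34, 0.15, 0.09 and 0.07, and 9, 31, 12 and 24 genes passed per the authors' deposited table. The SE was obtained from the authors' p by assuming a Wald test. The table gives group means and no values per library, so neither the overlap of single libraries nor the depth of each is known.

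Tgfbr1, the targeted gene (chromosome 4, 47353222 to 47414931, mm10), had means of 5823 in mutants against 5700 in controls and a log2 ratio of 0.03 (SE 0.08) per the authors' deposited table. This is the level over the whole gene, and reads over the floxed part were not analysed here, so it does not check the deletion. Xist, the RNA of the inactive X chromosome, had means of 5.73 in mutants against 36145 in controls per the authors' deposited table. Its FDR was 9.10e-12, so the mix of sexes probably differed between the groups. With group means alone, effects of sex and genotype cannot be separated in any comparison with these groups. Of 825 X-linked genes 2 passed, Xist and Zcchc12, and none of the 10 listed Y-linked genes passed. How many of those 10 had an FDR was not analysed here. Whether the groups differed in sex fully or in part is not known. The levels of the Y-linked genes Ddx3y, Eif2s3y, Kdm5d and Uty, planned as a check of sex, were not analysed here. The sex of single control samples is therefore not known. Levels per kilobase of the longest transcript were ranked among the autosomal genes: the 19 pericyte markers had a median at the 71.1st percentile in controls, against the 86.2nd for 16 markers of fibroblasts and meninges, the 89.3rd for 11 of cartilage and bone progenitors, the 55.2nd for 20 myeloid markers, the 31.3rd for 11 smooth muscle markers and the 23.7th for 17 endothelial markers. The sorted cells therefore expressed pericyte markers, but collagen-producing mesenchyme ranked above them, with Col1a1 at the 99.9th percentile.

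Among genes of TGF-beta signalling, the changes ran both ways: 2 genes on the ligand and receptor side rose and 2 feedback genes fell. Lrrc32, which encodes GARP, the cell surface carrier of latent TGF-beta, rose from 673 to 1135 per the authors' deposited table (log2 ratio 0.76, SE 0.13, FDR = 3.10e-05). Tgfbr3, the co-receptor betaglycan that presents ligand to the type II receptor, rose from 2512 to 3492 per the authors' deposited table (log2 ratio 0.48, SE 0.09). Skil, which encodes the SMAD repressor SnoN, fell from 3150 to 2108 per the authors' deposited table (log2 ratio -0.58, SE 0.15, FDR = 0.0360). Pmepa1, which encodes a membrane protein that sequesters SMAD2 and SMAD3, fell from 2156 to 1699 per the authors' deposited table (log2 ratio -0.34, SE 0.08).

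Every gene list here and below was drawn up with earlier results of these data known, so its share of calls is descriptive only. Of 27 tested ligands, receptors and latency partners Lrrc32 and Tgfbr3 rose and none fell (7.41% called, where 0.397% of all tested members were), 17 had a positive log2 ratio, and the median was 0.02, beside a median of 0.0012 and 50.4% positive over all tested members. Members with the highest mean counts, not corrected for transcript length, did not pass: Thbs1, an activator of latent TGF-beta, had means of 26309 in mutants against 27290 in controls, and Tgfb2, the ligand gene with the highest mean count, had 7338 and 5774 (log2 ratio 0.35, SE 0.12, FDR = 0.337) per the authors' deposited table. Tgfbr2, the type II receptor, had 3659 and 3597 per the authors' deposited table. Of 34 SMADs, feedback genes and targets, 2 fell and none rose (5.88% called), with a median log2 ratio of -0.01. The collagen genes Col1a1 and Col1a2 and the fibronectin gene Fn1, which respond to TGF-beta in many fibroblasts, had log2 ratios of 0.09, -0.01 and 0.07 (SE 0.12, 0.09 and 0.08) per the authors' deposited table. The BMP branch, which signals through other type I receptors, had no call among 29 tested genes, with 3 at an unadjusted p under 0.05, and 6 of the 29 lay above 0, the median being -0.08 and the range -0.41 to 0.12 per the authors' deposited table. Its members with the highest mean counts, Fstl1, Smad5, Bmpr2 and Bmpr1a, had log2 ratios of -0.13, -0.12, -0.11 and -0.04 per the authors' deposited table, each with FDR = 1.00.

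The 76 genes were placed in role groups after their values were seen, for reading only, so the counts over these groups describe genes picked because they passed. Matrix and secreted proteins formed a group of 10, of which 6 rose and 4 fell. Besides Sned1, Tinagl1, a basement membrane glycoprotein related to tubulointerstitial nephritis antigen, rose from 98.0 to 189 per the authors' deposited table (log2 ratio 0.95, SE 0.16, FDR = 4.40e-06). Col13a1, a transmembrane collagen of cell junctions, rose from 168 to 254 per the authors' deposited table (log2 ratio 0.60, SE 0.15). Mamdc2, Cp, which encodes the copper-carrying ferroxidase ceruloplasmin, and Svep1, a large matrix protein that binds integrins, rose with log2 ratios of 0.62, 0.59 and 0.39 per the authors' deposited table.

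Col15a1, a collagen that links basement membrane to the underlying matrix, fell from 365 to 47.6 per the authors' deposited table (log2 ratio -2.94, SE 0.49, FDR = 5.80e-06). Its estimate was the largest fall among the 76, next to Chp2 with -2.92 (SE 0.48). Emilin1, an elastic fibre glycoprotein that holds back the processing of TGF-beta precursors, fell from 14324 to 11659 per the authors' deposited table (log2 ratio -0.30, SE 0.06, FDR = 5.08e-04). Coch and Itgbl1 fell with log2 ratios of -0.81 and -0.56 per the authors' deposited table. Of 22 tested basement membrane genes Col15a1 fell and none rose (4.55% called, where 0.397% of all tested members were). Of the 22, 18 had a positive log2 ratio, 9 lay at an unadjusted p under 0.05 (4.08% of all tested members did), and the median was 0.11. The 4 with the highest mean counts, Sparc, Nid1, Col4a1 and Col4a2, had log2 ratios of 0.09, 0.19, 0.32 and 0.29 and did not pass (the smallest FDR of these was 0.362, for Col4a1) per the authors' deposited table. Among 28 fibrillar and associated collagens Col13a1 rose, none fell (3.57% called) and the median was 0.00. In 40 genes of elastic fibres, proteoglycans and matricellular proteins, Sned1 rose, Emilin1 fell (5% called) and the median was 0.05. The proteoglycan Vcan, the highest of these by mean count, had means of 58754 in mutants against 64292 in controls per the authors' deposited table. No gene of collagen processing passed among 26, with 5 at an unadjusted p under 0.05, and the collagen chaperone Serpinh1 had means of 52992 and 53227 per the authors' deposited table.

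**Figure D2:**
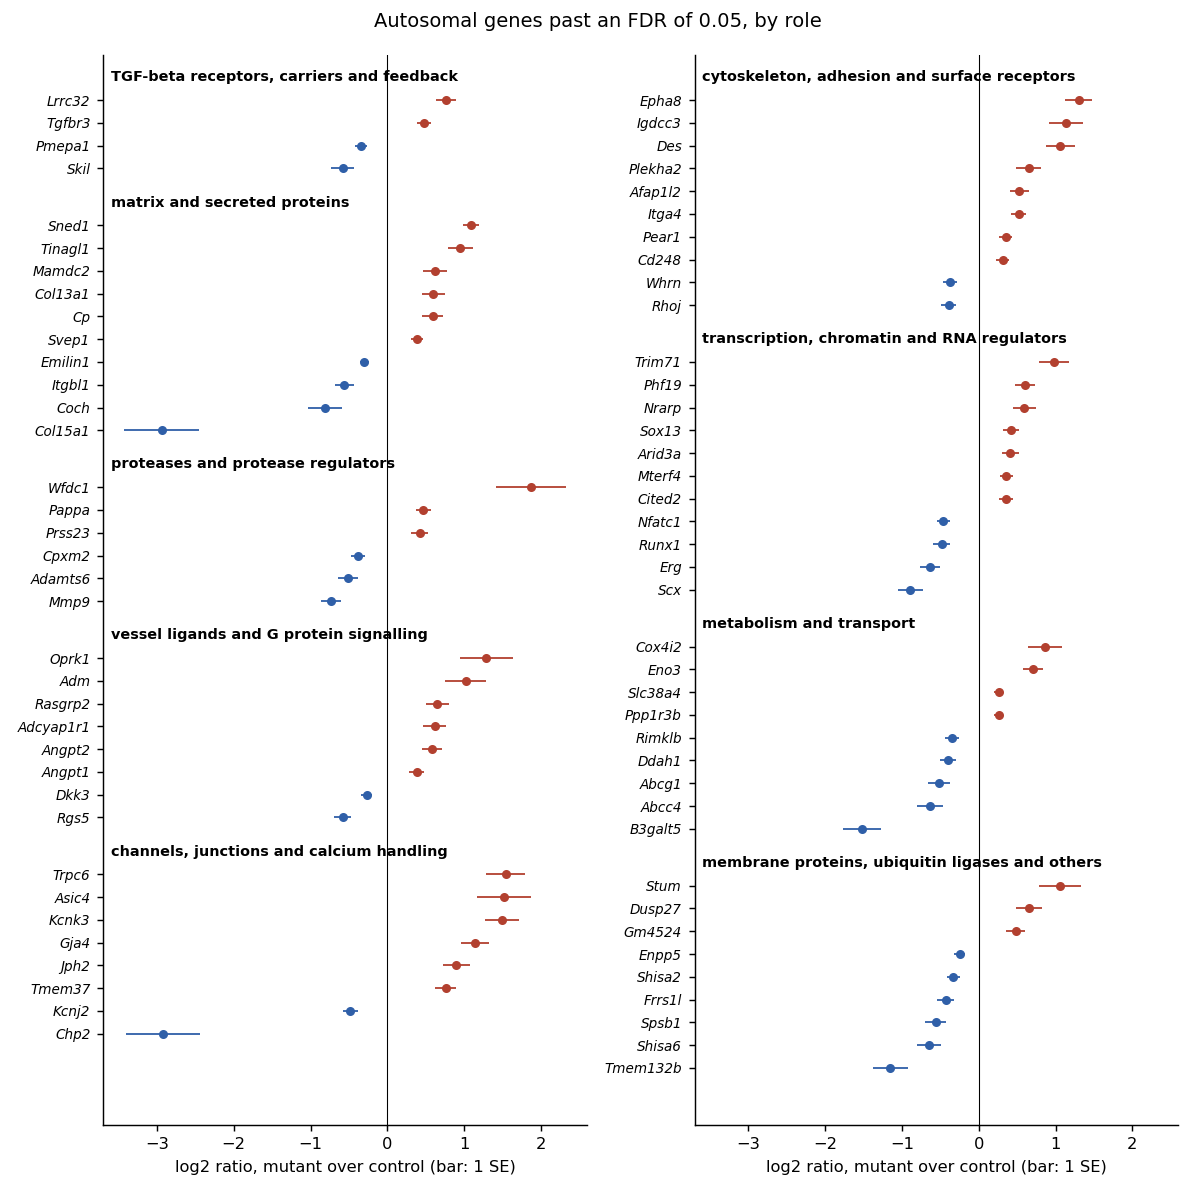
Log2 ratio of mutant to control with 1 SE (bars) for 75 of the 76 genes past an FDR of 0.05, grouped by role and sorted within each group. Red points, higher in mutants, make up 6 of 8 channel genes and 8 of 10 surface proteins, all picked because they passed, and Col15a1 and Chp2 have the largest falls and the widest bars.

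Proteases and their regulators went both ways, with 3 higher and 3 lower. Mmp9, the gelatinase that cuts basement membrane collagen, fell from 1123 to 680 per the authors' deposited table (log2 ratio -0.73, SE 0.13, FDR = 5.64e-05). Adamts6, a metalloprotease, and Cpxm2, a carboxypeptidase relative, fell with log2 ratios of -0.51 and -0.38 per the authors' deposited table. Wfdc1, a secreted protein with a protease inhibitor fold, rose from 6.75 to 24.6 per the authors' deposited table (log2 ratio 1.87, SE 0.45), so its control mean lay under the minimum of 10. Pappa, which cuts IGF-binding proteins, and Prss23, a serine protease, rose with log2 ratios of 0.47 and 0.42 per the authors' deposited table. Of 32 tested matrix proteases and inhibitors Mmp9 fell and none rose (3.125% called, where 0.397% of all tested members were), and the median was 0.00. Mmp14, Mmp2, Timp2 and Timp3, the highest by mean count, had log2 ratios of -0.02, -0.13, 0.03 and 0.07 and FDR = 1.00 each per the authors' deposited table.

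The list of angiogenic ligands and receptors had 38 tested members, of which 3 rose while none fell (7.89% called, where 0.397% of all tested members were), 26 had a positive log2 ratio and the median was 0.12. Angpt1, the activating ligand of the endothelial receptor TIE2 that mural cells release, rose from 1664 to 2164 per the authors' deposited table (log2 ratio 0.38, SE 0.10, FDR = 0.025). Angpt2, which opposes Angpt1 in many settings, rose from 217 to 324 per the authors' deposited table (log2 ratio 0.58, SE 0.13, FDR = 0.00544). Adm, the vasodilator peptide adrenomedullin, rose from 33.8 to 68.5 per the authors' deposited table (log2 ratio 1.02, SE 0.27, FDR = 0.0360). The 4 members with the highest mean counts, Nrp2, Cxcl12, Pdgfra and Ptn, had log2 ratios of 0.06, 0.01, -0.07 and -0.02 with FDR = 1.00 each per the authors' deposited table. Endothelial marker RNA was present beside them, and its part in this result was not tested: 15 of 17 endothelial markers had a positive log2 ratio, their median was 0.23, and their summed means were 5447 in mutants against 5506 in controls per the authors' deposited table. That sum includes Erg, which fell, and the 16 other markers summed to 4245 in mutants against 3638 in controls per the authors' deposited table. Cdh5, Kdr and Tek had means of 1013, 310 and 333 in mutants against 876, 243 and 244 in controls per the authors' deposited table, each with FDR = 1.00. In such sorted samples, more cells of a type and more RNA per cell cannot be told apart.

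Among the 76 were also genes of G protein and Wnt signalling. Rgs5, a pericyte marker that shortens G protein signals, fell from 2933 to 1965 per the authors' deposited table (log2 ratio -0.58, SE 0.11, FDR = 2.19e-04). Adcyap1r1, the receptor for the vasodilator peptide PACAP, Oprk1, the kappa opioid receptor, and Rasgrp2, a calcium-regulated activator of RAP1, rose with log2 ratios of 0.62, 1.29 and 0.65 per the authors' deposited table. Oprk1 was the lowest of these, with means of 48.5 in mutants and 19.8 in controls per the authors' deposited table. Dkk3, a secreted protein of the Dickkopf family, fell from 2674 to 2210 per the authors' deposited table (log2 ratio -0.27, SE 0.07), and did not pass after scaling to the summed means (adjusted p = 0.0606). It was the member that passed among 43 Wnt signalling genes (2.33% called, where 0.397% of all tested members were).

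Genes of channels, junctions and calcium handling formed a group of 8 among the 76, of which 6 rose and 2 fell. Trpc6, a receptor-operated cation channel, rose from 25.6 to 74.5 per the authors' deposited table (log2 ratio 1.54, SE 0.25, FDR = 3.76e-06). Kcnk3, the background potassium channel TASK-1, rose from 32.6 to 91.3 per the authors' deposited table (log2 ratio 1.49, SE 0.22, FDR = 1.16e-07). Asic4, of the acid-sensing channel family, rose from 30.3 to 87.2 per the authors' deposited table (log2 ratio 1.52, SE 0.35). Gja4, the gap junction protein connexin 37, rose from 94.4 to 208 per the authors' deposited table (log2 ratio 1.14, SE 0.18, FDR = 1.19e-06). Jph2, which ties the sarcoplasmic reticulum to the cell membrane, rose from 106 to 198, and Tmem37, a calcium channel subunit relative, from 170 to 287 per the authors' deposited table. In the other direction, Kcnj2, an inward rectifier potassium channel, fell from 704 to 504 per the authors' deposited table (log2 ratio -0.48, SE 0.10), and Chp2 fell as given above, with a mutant mean under 10.

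Of 31 tested channels, transporters and G protein regulators of mural cells, 3 rose (Trpc6, Kcnk3 and Asic4), 1 fell (Rgs5) and the median log2 ratio was 0.03. That is 12.9% called, where 0.397% of all tested members were, on a list drawn up with earlier results known. An unadjusted p under 0.05 was given for 9 of the 31. The other members with the highest mean counts, Ednra, Cacna1c and Slc12a7, had log2 ratios of -0.06, -0.04 and 0.03 with FDR = 1.00 each per the authors' deposited table. None of 18 nitric oxide and cGMP genes passed, with 2 at an unadjusted p under 0.05 and a median of 0.02.

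Structural and surface proteins formed a group of 10 among the 76, of which 8 rose and 2 fell. Des, desmin, the intermediate filament of mural and muscle cells, rose from 105 to 219 per the authors' deposited table (log2 ratio 1.06, SE 0.19, FDR = 2.76e-05). Epha8 had a log2 ratio of 1.30 (SE 0.18, FDR = 2.18e-09) per the authors' deposited table. Igdcc3, an immunoglobulin superfamily receptor, rose from 128 to 282 per the authors' deposited table (log2 ratio 1.14, SE 0.22). Itga4, the integrin subunit that binds fibronectin and VCAM-1, rose from 1479 to 2127 per the authors' deposited table (log2 ratio 0.52, SE 0.10, FDR = 3.72e-04). Cd248, the mesenchymal surface protein endosialin, Pear1, a receptor of the EGF-like family, Afap1l2 and Plekha2 rose with log2 ratios of 0.31, 0.35, 0.53 and 0.65 per the authors' deposited table. Rhoj, a small GTPase, and Whrn, the scaffold protein whirlin, fell with -0.39 and -0.37 per the authors' deposited table.

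Of 33 tested contractile and cytoskeletal genes Des rose and none fell (3.03% called, where 0.397% of all tested members were), 29 had a positive log2 ratio and the median was 0.12. Vim, Myh10, Cald1 and Tpm1, the highest by mean count, had log2 ratios of 0.12, 0.03, 0.01 and 0.03 and FDR = 1.00 each per the authors' deposited table. All 11 tested smooth muscle markers had a positive log2 ratio (0.09 to 1.06, median 0.38), with Des the one that passed (9.09% called), and 3 lay at an unadjusted p under 0.05. Acta2, smooth muscle actin, had means of 2992 in mutants against 2611 in controls (log2 ratio 0.20, SE 0.55), and Tagln 946 and 841 (0.17, SE 0.41) per the authors' deposited table, so their SE exceeded their log2 ratios. The summed means of the smooth muscle markers were 8067 in mutants against 6890 in controls per the authors' deposited table, and whether more smooth muscle cells entered the mutant sorts was not tested. Of 30 tested integrins and adhesion genes Itga4 rose, none fell (3.33% called) and the median was 0.06.

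**Figure D3:**
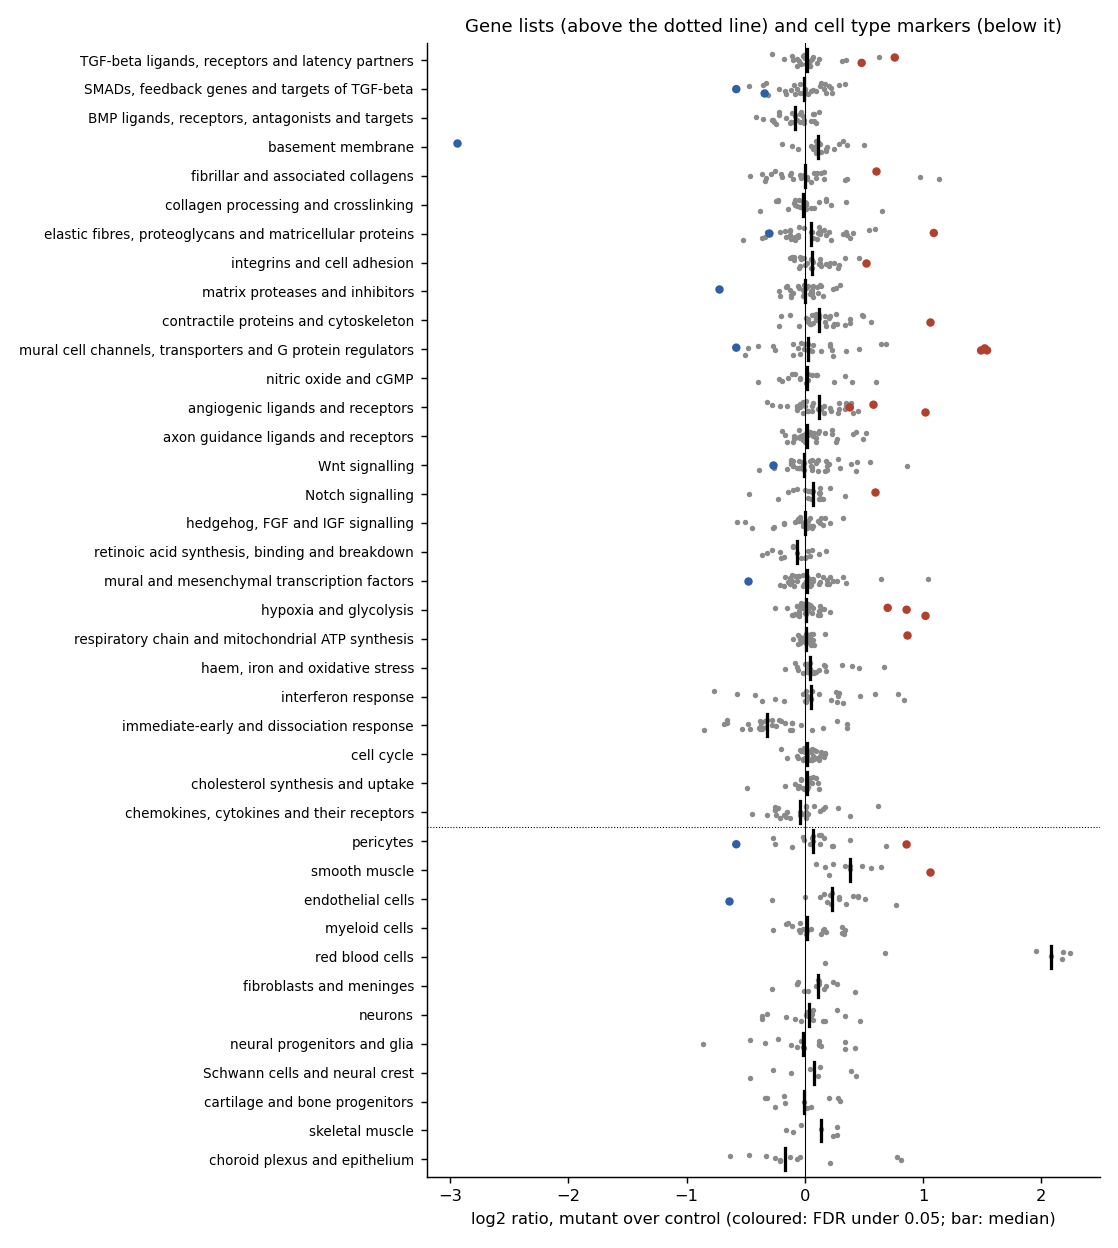
Log2 ratio of mutant to control for each tested member (points) of 27 pathway lists and 12 lists of cell type markers, with the median of each list (black bar). Coloured points passed an FDR of 0.05 per the authors' deposited table. The red blood cell list sits far to the right (median 2.08) and the immediate-early list to the left (median -0.32), both without a coloured point.

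Transcription and RNA regulators numbered 11 among the 76, with 7 higher and 4 lower. Scx, the tendon and connective tissue factor scleraxis, fell from 449 to 243 per the authors' deposited table (log2 ratio -0.89, SE 0.16, FDR = 2.70e-05). Erg, an ETS factor best known from endothelium, fell from 1868 to 1203 per the authors' deposited table (log2 ratio -0.64, SE 0.13, FDR = 6.95e-04). By level per kilobase Erg ranked at the 84.0th percentile in controls, where the endothelial markers had a median at the 23.7th. Which of the sorted cells carried it was not tested. Runx1, a factor of blood and mesenchymal cells, fell from 1975 to 1413 per the authors' deposited table (log2 ratio -0.48, SE 0.11), and Nfatc1, a calcineurin-dependent factor, fell with -0.46 (SE 0.09). Trim71, which represses messenger RNAs in early embryonic cells, rose from 122 to 242 per the authors' deposited table (log2 ratio 0.98, SE 0.20, FDR = 5.09e-04). Nrarp, a feedback inhibitor of Notch signalling, rose from 251 to 379 per the authors' deposited table (log2 ratio 0.59, SE 0.15, FDR = 0.0193). Phf19, a Polycomb protein, and the factors Sox13, Arid3a and Cited2 rose with log2 ratios of 0.60, 0.42, 0.41 and 0.36, as did the mitochondrial factor Mterf4, with 0.36, per the authors' deposited table.

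Of 22 Notch signalling genes Nrarp rose and none fell (4.55% called, where 0.397% of all tested members were), 17 had a positive log2 ratio and the median was 0.06. Notch3, the main Notch receptor of mural cells, had means of 4786 in mutants against 4595 in controls per the authors' deposited table. Of 43 mural and mesenchymal transcription factors Runx1 fell and none rose (2.33% called), with 8 at an unadjusted p under 0.05 and a median of 0.02. Prrx1, the highest by mean count, had a log2 ratio of -0.09 (SE 0.08) per the authors' deposited table.

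Metabolic and transport genes split into 4 that rose and 5 that fell. Cox4i2, the cytochrome oxidase subunit that marks oxygen-sensing cells and pericytes, rose from 60.5 to 110.0 per the authors' deposited table (log2 ratio 0.86, SE 0.22, FDR = 0.0263). Eno3, the muscle form of enolase, rose from 142 to 230 per the authors' deposited table (log2 ratio 0.70, SE 0.13, FDR = 2.04e-04). Slc38a4, an amino acid transporter, and Ppp1r3b, which targets a phosphatase to glycogen, rose with 0.26 each per the authors' deposited table. B3galt5 had a log2 ratio of -1.52 (SE 0.25, FDR = 3.63e-06), and the transporters Abcc4 and Abcg1, the nitric oxide pathway enzyme Ddah1 and Rimklb fell with -0.64, -0.52, -0.40 and -0.35 per the authors' deposited table. Among 39 genes of hypoxia and glycolysis, a list drawn up with earlier results known, Adm, Cox4i2 and Eno3 rose and none fell (7.69% called, where 0.397% of all tested members were), and the median was 0.01. Adm counts in the angiogenic list as well, and Cox4i2 in the respiratory chain and pericyte lists. The glycolytic genes Pkm, Ldha, Tpi1 and Aldoa had log2 ratios between -0.03 and 0.06 per the authors' deposited table. Of 31 respiratory chain genes Cox4i2 rose and none fell (3.23% called), with a median of 0.01.

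A group of 10 remained, of which 3 rose and 7 fell. Stum and Dusp27 rose with log2 ratios of 1.06 and 0.65, and the antisense RNA Gm4524 with 0.48, per the authors' deposited table. Tmem132b, a membrane protein, fell from 165 to 74.2 per the authors' deposited table (log2 ratio -1.15, SE 0.23, FDR = 3.72e-04). Shisa2, Shisa6, Frrs1l, Enpp5 and the ubiquitin ligase adaptor Spsb1 fell with log2 ratios between -0.65 and -0.25 per the authors' deposited table.

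Of 19 tested pericyte markers Rgs5 fell and Cox4i2 rose (10.5% called, where 0.397% of all tested members were), 13 had a positive log2 ratio, and the median was 0.07. Pdgfrb, Zic1, Notch3 and Cspg4, the highest by mean count among those that did not pass, had log2 ratios of 0.16, 0.04, 0.06 and -0.11 with FDR = 1.00 each per the authors' deposited table. The summed means of the pericyte markers were 42432 in mutants against 41316 in controls per the authors' deposited table. Fibroblast and meningeal markers summed to 320800 and 304434 and cartilage and bone progenitor markers to 77761 and 90783 per the authors' deposited table, and none of these 16 and 11 markers passed, with 4 and 1 at an unadjusted p under 0.05. Myeloid markers had a median log2 ratio of 0.01 and none of 20 passed per the authors' deposited table.

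Red blood cell RNA was higher in the mutant means, without passing the test. All 7 tested red cell genes had a positive log2 ratio (0.17 to 2.24, median 2.08), 4 of them lay at an unadjusted p under 0.05, and their summed means were 2154 in mutants against 524 in controls per the authors' deposited table. The beta globin gene Hbb-bs had means of 619 and 137 (log2 ratio 2.17, SE 1.04, FDR = 1.00) per the authors' deposited table, against an SE of 0.10 for Sned1. Immediate-early and dissociation-response genes lay the other way, with 5 of 33 positive, a median of -0.32 and none past the threshold, with 1 at an unadjusted p under 0.05. Fos and Egr1, which cells switch on within minutes of handling, had means of 9597 and 25334 in mutants against 15140 and 40159 in controls (log2 ratio -0.66 each, SE 0.79 and 0.75) per the authors' deposited table. The part of blood or of handling in the 76 calls was not tested.

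Lists without a call among their tested members, besides those given, were axon guidance (40 tested, 5 at an unadjusted p under 0.05, median 0.02), retinoic acid (17, 3, -0.07), hedgehog, FGF and IGF signalling (32, 3, 0.00), haem, iron and oxidative stress (27, 4, 0.04), interferon response (27, 3, 0.05), cell cycle (40, 1, 0.02), cholesterol (22, 0, 0.02) and chemokines and cytokines (27, 3, -0.04). The cell cycle genes were the tightest of these, with log2 ratios from -0.20 to 0.17, and the proliferation gene Mki67 had means of 14891 in mutants against 13482 in controls per the authors' deposited table. Markers of neurons, neural progenitors and glia, Schwann cells and neural crest, skeletal muscle, and choroid plexus and epithelium had medians of 0.04, -0.02, 0.08, 0.14 and -0.17 and no call among 20, 16, 8, 7 and 12 tested, with 1, 3, 1, 0 and 0 at an unadjusted p under 0.05.

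The largest fall lay beside the targeted gene. Col15a1 (chromosome 4, 47208161 to 47313167, plus strand) ends 40.1 kb before the start of Tgfbr1, the gene that carries the floxed sites. In endothelial cells its means were 120 in mutants against 1196 in controls (log2 ratio -3.32, SE 0.21, FDR = 5.34e-53) per the authors' deposited table. The difference of the 2 log2 ratios was 0.38 (SE 0.54, adjusted p = 0.815). The genes next to it did not pass in pericytes: Galnt12 and Anks6 before it had log2 ratios of -0.06 and 0.03, and Gm12430, Alg2 and Sec61b beyond Tgfbr1 had 0.22, -0.12 and 0.02, per the authors' deposited table. Of 18 tested genes within 1 Mb of Tgfbr1, 1 passed (5.56%) in pericytes, and of 264 within 20 Mb 6 passed (2.27%), among them Frrs1l, Svep1, Whrn and Pappa, where 0.397% passed among all. In endothelial cells 17 of 219 genes within 20 Mb passed (7.76%), where 7.34% of members with an FDR in both cell types did. Without Col15a1 the log2 ratios within 1 Mb in pericytes ran from -0.24 to 0.46, with a median of 0.00. Mutants carry 2 copies of the chromosome with the floxed allele and controls 1, so the genotype at Alk5 and a linked stretch of chromosome 4 cannot be told apart for these genes.

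**Figure D4:**
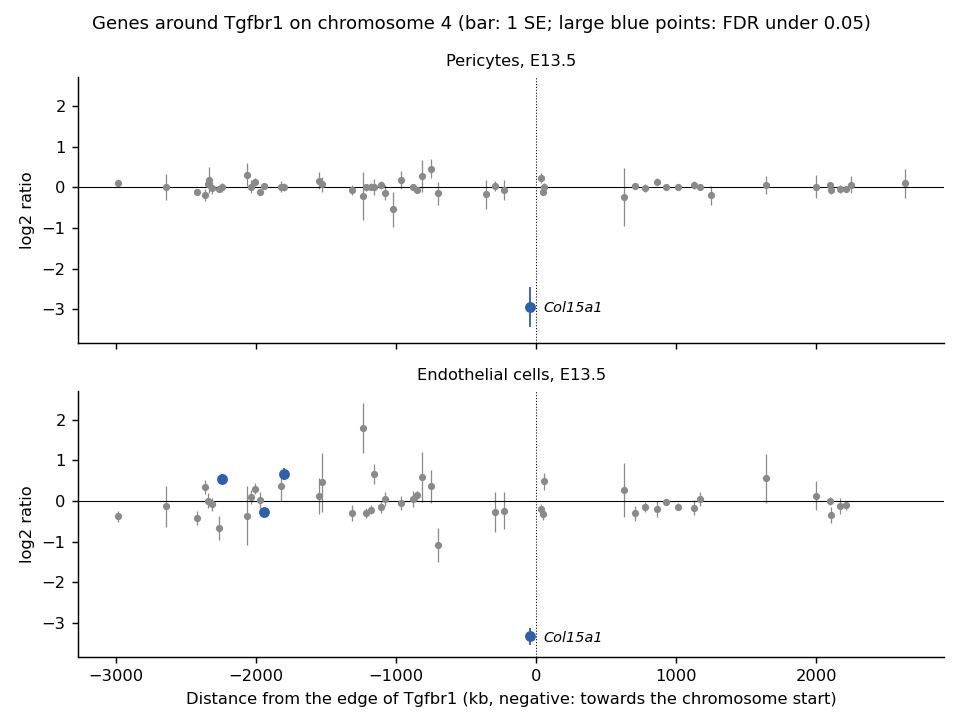
Log2 ratio of mutant to control with 1 SE (bars) for genes within 3 Mb of Tgfbr1, against the distance from its edge in kb, in pericytes (above) and endothelial cells (below) at E13.5. Col15a1, the large blue point near 0, lies at -2.94 and -3.32, and the other genes of the upper panel lie between -0.54 and 0.46.

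By chromosome, 10 of 1205 tested genes of chromosome 4 (0.830%) and 10 of 1254 of chromosome 1 (0.797%) passed per the authors' deposited table. Several of the 76 lie close together. Des and Asic4, which both rose, are 81.9 kb apart on chromosome 1, Kcnk3, which rose, and Emilin1, which fell, 288 kb apart on chromosome 5, and Erg and B3galt5, which both fell, 649 kb apart on chromosome 16. Sned1 and Mterf4, which both rose, share 1855 exon bases on opposite strands of chromosome 1. Whether the authors counted reads by strand is not given in the sources used here, and reads of one could have been counted for the other, and the rise of Mterf4, from 861 to 1103 per the authors' deposited table, is uncertain. In all, 16 of the 76 share exon bases with another listed gene, 14 of them on the opposite strand, among them Gm4524, which shares 1055 bases with P3h2.

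At E11.5, earlier in development, some of these genes had changed. Among members with an FDR at both stages, 608 of 17414 passed at E11.5 (3.49%), and 74 of the 76 had an FDR there. Of these 16 passed at both stages, which is 21.6% of the 74 and 2.63% of the 608, and 15 had the same sign. Higher at both stages were Wfdc1, Asic4, Des, Stum, Trim71, Eno3, Plekha2 and Cp, and lower at both were Cpxm2, Ddah1, Runx1, Adamts6, Rgs5, Erg and Mmp9, per the authors' deposited tables. Des had a log2 ratio of 0.97 (SE 0.21) at E11.5 and 1.06 at E13.5, and Asic4 one of 1.20 (SE 0.29) and 1.52, per the authors' deposited tables. Rgs5 and Runx1 had -2.05 and -1.84 (SE 0.62 and 0.46) at E11.5 per the authors' deposited table, against -0.58 and -0.48 at E13.5, but these differences did not pass (adjusted p = 0.265 and 0.126). Oprk1 had opposite signs, -1.20 (SE 0.38, FDR = 0.0492) at E11.5 and 1.29 at E13.5 per the authors' deposited tables.

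The difference of log2 ratios between the stages passed for 254 of 17414 members (1.46%), by a normal test with Benjamini-Hochberg adjustment, and for 9 of the 74. The 74 were picked by the E13.5 ratios that enter the difference, so these 2 counts cannot be compared. For Gja4 the difference was 1.66 (SE 0.28, adjusted p = 1.53e-05), with -0.52 at E11.5, and for Sned1 1.56 (SE 0.31, adjusted p = 5.39e-04), with -0.47 at E11.5. Trpc6, Kcnk3, Epha8 and Cox4i2 had 0.04, -0.16, 0.08 and -0.33 at E11.5 per the authors' deposited table, and differences of 1.5, 1.65, 1.22 and 1.19. Nrarp and Oprk1 differed by 1.66 and 2.49, and Erg, lower at both stages, by 1.94. The E11.5 statistics were wide (median size 1.018), and with the spread of each table rescaled so that this median equals 0.674, a choice made after the data were seen, the difference passed for 2 members in all, Gja4 of these 9 and Fst. The smallest p over all members belonged to Fst, Hic1, Adamtsl2 and Nfix, which had log2 ratios between -0.24 and 0.02 at E13.5 and between -3.67 and -1.85 at E11.5 per the authors' deposited tables.

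**Figure D5:**
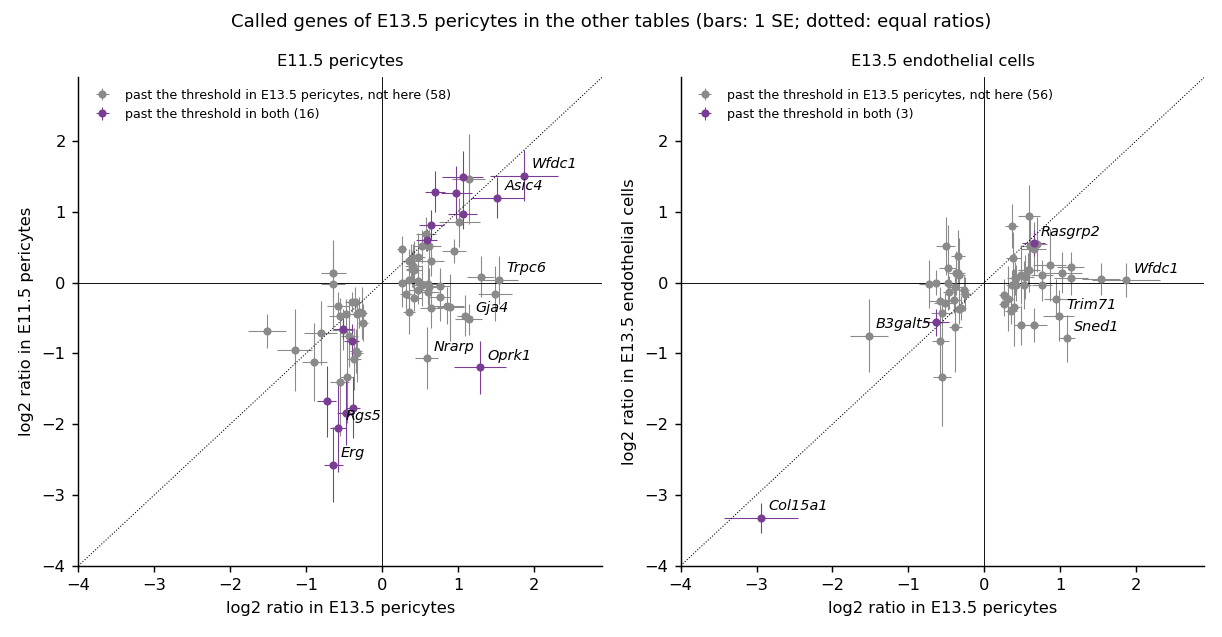
Log2 ratio in E13.5 pericytes (horizontal) against that in E11.5 pericytes (left, 74 genes) and E13.5 endothelial cells (right, 59 genes) for genes past an FDR of 0.05 in E13.5 pericytes, with 1 SE on both axes. Purple points (16 and 3) passed in both tables, and points on the dotted line have equal ratios. Trpc6 and Gja4 lie near or under 0 at E11.5, and Col15a1 lies near the line in endothelial cells.

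In endothelial cells sorted at the same age, 1185 of 16138 members with an FDR in both tables passed (7.34%), and 59 of the 76 had an FDR there. Rasgrp2, Abcc4 and Col15a1 passed in both cell types with the same sign, which is 5.1% of the 59 and 0.25% of the 1185. Rasgrp2 had a log2 ratio of 0.56 (SE 0.18) and Abcc4 one of -0.56 (SE 0.19) in endothelial cells per the authors' deposited table. The difference between the cell types passed for 631 of 16138 members (3.91%) and for 11 of the 59. The 59 were picked by the pericyte ratios that enter the difference, so these 2 counts cannot be compared. All 11 had the higher log2 ratio, not level, in pericytes: Sned1 (1.88), Wfdc1 (1.84), Trpc6 (1.49), Trim71 (1.45), Dusp27 (1.25), Tinagl1 (1.18), Tgfbr3 (1.08), Igdcc3 (1.07), Gja4 (0.92), Pear1 (0.75) and Slc38a4 (0.57), as differences of log2 ratios. Sned1 had means of 73.8 and 128 and Tgfbr3 772 and 1170 in mutant and control endothelial cells per the authors' deposited table, and neither passed there. Lrrc32 had a log2 ratio of -0.03 (SE 0.23) in endothelial cells per the authors' deposited table, a difference of 0.78 that did not pass (SE 0.27, adjusted p = 0.0703). With the spread rescaled 13 members passed in all, none of these 11 among them. The smallest p over all members belonged to Rps15a, Gm10443, Rplp1 and Gm14303, with log2 ratios no further from 0 than -0.16 in pericytes and between 0.76 and 1.41 in endothelial cells per the authors' deposited tables, and these 4 also passed with the spread rescaled.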

How the data were processed

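Per the labels' protocols, messenger RNA of flow-sorted cells was made into libraries (KAPA kit) and read on a NovaSeq. The submitters' processing notes list Partek, Bowtie2 and DESeq2, without versions, and the mouse build mm10. The counting step, annotation and filters are not given in the sources used here. Per the file headers, the 3 deposited tables list, per gene, p-value and step-up FDR of the authors, mutant over control as a ratio, the same as a signed fold change (a score) and the least-squares mean of either group. These deposited means are taken as signal, normalized read counts on a scale that is not stated, so depth per library is unknown.

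The design planned tests on values per library. The tables hold group means, so the planned fallback, the authors' own p and FDR (an adjusted p taken as DESeq2's), was used. The FDR equals the Benjamini-Hochberg value over the table. Log2 ratios were taken from the deposited ratios. The SE is the log2 ratio over the normal deviate of the two-sided p. Ratios of 2 tables were compared by their difference over the root of the summed squared SE, with Benjamini-Hochberg adjustment over genes with an FDR in both. The step was run on simulated estimates drawn with the same SE, which cannot show whether that SE is right. Tables were normalized separately.

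Members, gene lists and tests were chosen with earlier results of these data known. The text names the genes past the threshold, except 1 that is not reported here, with both means for those in a list or among the 10 largest ratios or smallest p of each direction, the 4 other members of a list with the highest mean counts, and 4 genes per tested difference. A few means beyond that rule were added after the values were seen. GENCODE M21 gave positions (mm10), and 97.9% of members had a transcript length. Proteins and the genome sequence were not used here. The alternatives were other minimum means, FDR over members alone, an FDR of 0.1, a log2 ratio of at least 1, scaling to summed means and, added after the data were seen, rescaled spread. The work used Python 3.11.15 with scipy 1.17.1, pandas 2.3.3, numpy 2.4.6 and matplotlib 3.10.9.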

Additional observations from a re-analysis of the deposited data

Results flagged for a closer look

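The results here were singled out because the mutant effect in E13.5 pericytes differed from that in another table by a test of the difference itself, given as the difference of log2 ratios. Against E11.5 pericytes these were, among genes past the threshold at E13.5, Gja4 (1.66), Sned1 (1.56), Oprk1 (2.49), Kcnk3 (1.65), Epha8 (1.22), Nrarp (1.66), Erg (1.94), Trpc6 (1.5) and Cox4i2 (1.19). Fst (1.86), Hic1 (2.81), Adamtsl2 (2.23) and Nfix (3.60) had the smallest p of all members. For those 4 genes the E13.5 ratio was near 0 and the change lay at E11.5.

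Against E13.5 endothelial cells the differences were 1.88 for Sned1, 1.49 for Trpc6, 1.25 for Dusp27, 0.75 for Pear1, 1.08 for Tgfbr3, 1.18 for Tinagl1, 1.84 for Wfdc1, 1.45 for Trim71, 0.57 for Slc38a4, 0.92 for Gja4 and 1.07 for Igdcc3. The smallest p of all members belonged to Rps15a (-0.92), Gm10443 (-1.37), Rplp1 (-0.96) and Gm14303 (-1.41), where the change lay in endothelial cells. Under the rescaled spread the difference passed for Gja4 and Fst against E11.5, and for Rps15a, Gm10443, Rplp1 and Gm14303 but none of the 11 genes named first against endothelial cells.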

How the results depend on the processing

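No paired analysis was possible because the tables hold 1 mean per group and no values per library, and leaving out single replicates was not run for the same reason. The 76 calls were 16 with a log2 ratio of at least 1 and 136 with the spread rescaled, a choice made after the data were seen. No minimum mean and FDR over members alone left all 76, a minimum of 50 left 73, and an FDR of 0.1 gave 98. With scaling to the summed means 7 calls were lost (Dkk3, Enpp5, Adamts6, Rimklb, Abcc4, Abcg1 and Coch, adjusted p from 0.0518 to 0.0748) because falls shrink by 0.019 in log2, and no direction turned. The number of members whose effect differed from E11.5 went from 254 to 2 with the spread rescaled, and from endothelial cells from 631 to 13, since the SE of those tables was multiplied by 1.510 and 1.483 and that of E13.5 pericytes by 0.864. Of the 39 lists, 18 held at least 1 call. Low genes limit precision most, with a median SE of 0.34 in the lowest of 4 equal groups by level.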
